A study of Mus musculus with 6 samples.

Results

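miR-126a, miR-221 and miR-222 are miRNAs that are abundant in endothelium, the cell layer that lines blood vessels. Their mature arms were followed in exosomes, the small vesicles that cells release into blood, from the serum of 3 sham and 3 Acu/LFES mice. The members were chosen by name, as mmu-miR-126a-3p, mmu-miR-126a-5p, mmu-miR-221-3p, mmu-miR-221-5p and mmu-miR-222-3p, and all 5 were found among the 1982 miRNAs of the deposited table. Of these, 4 had counts and were tested, and miR-221-5p had 0 counts in every mouse. miR-126a-5p was lower and the seed pair miR-221-3p and miR-222-3p higher on average with Acu/LFES, but 0 of the 4 passed an adjusted p under 0.05 in edgeR's test, as did 0% of all 259 miRNAs tested. Within libraries, where no scaling is needed, the count of miR-126a-5p relative to miR-221-3p was lower in each Acu/LFES mouse than in each sham mouse, at the smallest p that an exact permutation test on 6 mice allows, 0.1. This ratio was singled out after its values were seen, and its p was 0.3 after adjustment over 6 ratios in the permutation tests. Ratios of miRNAs outside the members were not computed, so whether such a separation is unusual among ratios was not tested.

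All mice were male C57BL/6 animals aged 3 months. Acu/LFES mice (labelled ACU-LFES, mice 4, 5 and 6) were given acupuncture with low-frequency electrical stimulation of a hindlimb for 30 minutes on a single occasion. Sham mice (labelled Control, mice 1, 2 and 3) also had needles, placed near those positions and wired to the device, but no current was passed, so the groups differ in the current and in the needle position. The labels give neither the delay between stimulation and blood collection nor any cell type of origin for the vesicles.

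A miRNA gene is transcribed into a hairpin whose 5p and 3p arms can each become a mature miRNA, and the mature strand pairs with mRNAs mainly through its seed, bases 2 to 8. miR-126 is processed from within the Egfl7 transcript, which encodes a protein secreted by endothelial cells, and miR-126-3p is known for supporting growth factor signalling in vessels by repressing Spred1 and Pik3r2 and for repressing the adhesion molecule Vcam1. miR-126-5p is known for repressing Dlk1 in endothelial cells. miR-221-3p and miR-222-3p are known for repressing the cell-cycle inhibitor Cdkn1b and the receptor Kit. None of them is made in endothelium alone, since platelets also carry miR-126 and many dividing cells carry miR-221 and miR-222. The data hold no mRNA or protein, so the endothelial label could not be checked against cell markers, and a smaller number of vesicles from a cell type cannot be told apart from less miRNA in each vesicle. Counts are relative to their library and do not give amounts in serum, where the authors reported a higher concentration of exosomes after Acu/LFES.

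RefSeq (GRCm38.p6) gave a mature sequence for 4 of the 5 members, all except miR-126a-5p. They are shown because the comparisons below turn on which arms were counted and on a seed that a pair of members shares; the seed is in capitals and the sequences run 5′ to 3′.
miR-126a-3p: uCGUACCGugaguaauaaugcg
miR-221-3p: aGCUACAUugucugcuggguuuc
miR-222-3p: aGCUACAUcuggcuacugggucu
miR-221-5p: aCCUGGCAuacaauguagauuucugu
miR-221-3p and miR-222-3p have the same seed and the same first 8 bases. Over their 23 positions they differ at 12, the first being U9C, with positions counted from 1 at the 5′ end and the base of miR-221-3p given first, so a full-length read of either is unlike the other. miR-1928, the only other listed miRNA with this seed among those with a RefSeq sequence, had 1 count in all 6 mice together. No other RefSeq mature miRNA of the mouse shared the seed of miR-126a-3p or of miR-221-5p.

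In GRCm38 with the GENCODE M21 annotation, Mir126a lies on chromosome 2 from 26591357 to 26591429 on the plus strand, inside Egfl7. It overlaps an exon of 1 of the 9 Egfl7 transcripts that span it and is intronic in the others. It also lies in an intron of Gm20532, annotated as protein-coding on the same strand. Mir126b is annotated on the opposite strand of the same hairpin, from 26591363 to 26591420. Its arms had almost no reads, with 1 count of miR-126b-5p in sham mouse 1 and 1 count of miR-126b-3p in each of sham mouse 2 and Acu/LFES mouse 6. Mir221 lies on chromosome X from 19146294 to 19146388 and Mir222 from 19146893 to 19146971, both on the minus strand with 504 bases between them and no other annotated gene overlapping either. The build behind the deposited counts is not given in the sources used here, and these positions describe the genes and not the reads.

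Library totals ranged from 391708 to 1504137 counts. miR-486a-5p and miR-486b-5p, red-cell miRNAs listed with identical counts, together took from 29.2% to 74.0% of a library. Both rows were counted in this share and in the total, and the lowest share was that of Acu/LFES mouse 6. A count divided by the library total therefore moves with these rows, and levels are given as normalised read counts, which are CPM after each library total was scaled by a TMM factor (0.65 to 2.12), so that levels in a library need not sum to the usual total. No pair of libraries looked like the same library deposited again. Counts of different miRNAs were compared as counted, with no correction for how well each sequence is captured in a library, and each read stands for a whole mature miRNA, so no scaling by length was applied.

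The order of levels was the same in both groups for the mean, with miR-221-3p first, then miR-126a-5p, then miR-222-3p and miR-126a-3p close together, and miR-221-5p not detected. By mean normalised read count over the 6 mice, miR-221-3p ranked 17 among the 259 miRNAs tested, miR-126a-5p 43, miR-222-3p 63 and miR-126a-3p 75. The gap between miR-222-3p and miR-126a-3p was within the spread between mice in sham animals, at 463 ± 113 and 383 ± 136 CPM (SD over 3 mice). In Acu/LFES animals the same pair did not overlap, at 523 to 911 and 185 to 440 CPM. The gaps above them exceeded the spread in both groups, since the lowest miR-126a-5p value of any mouse, 1302 CPM, lay above the highest miR-222-3p value, 911 CPM, and the highest miR-126a-5p value, 2148 CPM, lay below the lowest miR-221-3p value, 4793 CPM.

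**Figure D1:**
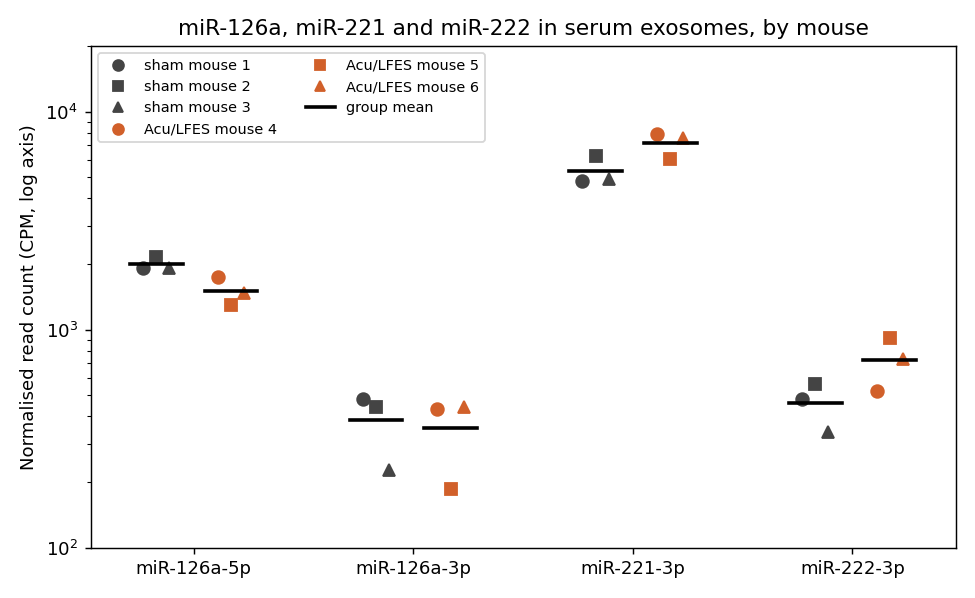
Normalised read count (CPM, log axis) of the 4 detected members in each mouse, sham in grey and Acu/LFES in orange, with a black bar at each group mean (n = 3). All 3 Acu/LFES mice lie below the sham mice for miR-126a-5p, from 1302 to 1737 against 1923 to 2148 CPM, and the groups overlap for the other 3 miRNAs.

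miR-126a-5p, the arm of miR-126a that was counted most, was counted 1336, 921 and 582 times in sham mice 1, 2 and 3, against 2903, 626 and 1609 times in Acu/LFES mice 4, 5 and 6. Normalised, this came to 1926, 2148 and 1923 CPM for sham and 1737, 1302 and 1468 CPM for Acu/LFES. The groups did not overlap, and every Acu/LFES mouse was lower, although mouse 4 lay close to the sham range. It was the 1 member of 4 with such a gap, and 8.11% of all miRNAs tested were likewise lower in each Acu/LFES mouse than in each sham mouse. Group means were 1999 ± 129 and 1502 ± 220 CPM (SD over 3 mice), a log2 fold change of -0.41 with a standard error of 0.22 (95% interval -0.89 to 0.07, edgeR quasi-likelihood adjusted p = 0.568). Scaled to total counts instead, the log2 fold change turned to 0.26, while the median of all miRNAs tested moved from 0.05 to 0.71, and relative to that median miR-126a-5p was still lower, by -0.45.

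miR-126a-3p, the other arm and the better known regulator, was read 334, 189 and 69 times in sham mice 1 to 3, against 724, 89 and 482 times in Acu/LFES mice 4 to 6. Its levels were 482, 441 and 228 CPM for sham, compared with 433, 185 and 440 CPM for Acu/LFES. The groups overlapped, with sham mouse 3 and Acu/LFES mouse 5 low and the other 4 mice close together. The log2 fold change was -0.12 with a standard error of 0.42 (95% interval -1.06 to 0.82, edgeR adjusted p = 0.963), so these data leave room for a change of nearly a log2 unit in either direction. Its sign turned with single mice, to 0.14 without sham mouse 1 and to 0.23 without Acu/LFES mouse 5. With total counts it was 0.64, while the median of all miRNAs was 0.71 there, a difference of -0.07.

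miR-221-3p, the most counted member, gave 3325, 2684 and 1489 reads for sham mice 1 to 3, against 13136, 2901 and 8275 reads for Acu/LFES mice 4 to 6. Normalised, sham mice had 4793, 6261 and 4920 CPM, compared with 7862, 6032 and 7551 CPM under Acu/LFES. Acu/LFES mice 4 and 6 stood above all sham mice, and mouse 5 lay just below sham mouse 2. Mean levels were 5325 ± 813 and 7148 ± 979 CPM (SD over 3 mice), a log2 fold change of 0.42 with a standard error of 0.23 (95% interval -0.09 to 0.94, edgeR adjusted p = 0.583). The log2 fold change was 1.15 with total counts, which is 0.44 above the median of all miRNAs under that scaling. With no filter on low counts it was 0.49, against a higher median of 0.68 over all 954 miRNAs then tested, a difference of -0.19. With at least 10 counts required in every library it was 0.41, against a median of -0.002, so the comparison with the median depends on the rows of low count.

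miR-222-3p, which shares the seed of miR-221-3p, yielded 335, 242 and 103 reads for sham mice 1 to 3, against 874, 438 and 803 reads for Acu/LFES mice 4 to 6. In CPM this was 483, 565 and 340 for sham, compared with 523, 911 and 733 for Acu/LFES. Acu/LFES mice 5 and 6 were above the sham range, and mouse 4 lay inside it. From means of 463 ± 113 and 722 ± 194 CPM (SD over 3 mice), the log2 fold change was 0.64, the largest of the 4 members by size, with a standard error of 0.31 (95% interval -0.04 to 1.32, edgeR adjusted p = 0.568). It was 0.48 without Acu/LFES mouse 5 and was 1.27 with total counts, 0.56 above the median of all miRNAs there. With no filter on low counts it was 0.68, level with the median of all miRNAs then tested. With at least 10 counts required in every library it was 0.64, against a median of -0.002.

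The mouse that was highest for miR-222-3p was thus the lowest Acu/LFES mouse for miR-221-3p. When the counts of these miRNAs were added, the sum went from 5818 ± 855 CPM under sham to 7824 ± 806 CPM under Acu/LFES (SD over 3 mice) without overlap, and 8.88% of all miRNAs tested were likewise higher in each Acu/LFES mouse. The margin was narrow, since sham mouse 2 had 6261 CPM of miR-221-3p and 565 CPM of miR-222-3p, and Acu/LFES mouse 5 had 6032 and 911 CPM. Neither miRNA separated the groups by itself. The log2 fold change of the sum was 0.43 with a standard error of 0.22 (edgeR adjusted p = 0.584, with the sum in place of its parts). Since miR-221-3p supplies most of the reads, with 31810 counts over the 6 mice against 2795 of miR-222-3p, the sum follows miR-221-3p closely.

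In edgeR, 0 of the 4 members and 0% of all miRNAs thus passed after adjustment. At an unadjusted p under 0.05 that test again called 0 members, against 8.88% of all miRNAs, 5.79% higher and 3.09% lower. DESeq2, run as the alternative tool, had 3.47% of all miRNAs and 0 of the members at an adjusted p under 0.05, each of miR-126a-5p, miR-221-3p and miR-222-3p having an adjusted p of 0.326. Before adjustment DESeq2 placed 1 member under 0.05, miR-221-3p at 0.0474, where 11.2% of all miRNAs were under 0.05, 6.56% higher and 4.63% lower. The median log2 fold change was 0.15 over the 4 members and 0.05 over all miRNAs tested, which hides that members of different loci lay on different sides of 0.

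**Figure D2:**
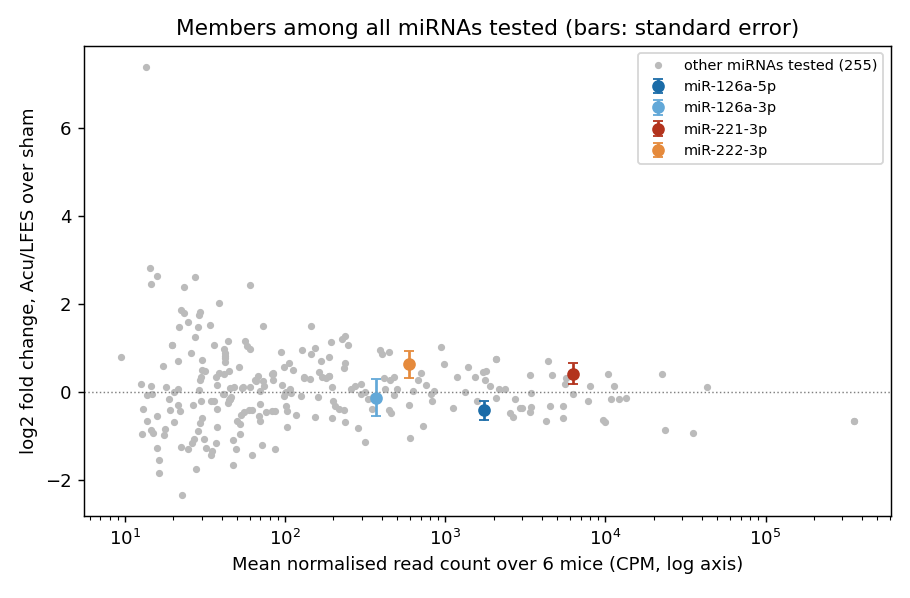
Log2 fold change of Acu/LFES over sham against mean normalised read count (CPM, log axis) for the 259 miRNAs tested by edgeR, with the 4 members in colour and bars at their standard error. The members lie between -0.41 and 0.64, inside the cloud of other miRNAs.

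Ratios of counts within the same library compare members without any scaling. The count of miR-126a-5p was 0.402, 0.343 and 0.391 times that of miR-221-3p in sham mice 1, 2 and 3, and 0.221, 0.216 and 0.194 times in Acu/LFES mice 4, 5 and 6. The values sat close together within each group, and the gap between the groups was wider than either spread. On the log2 scale the ratio was -1.40 ± 0.12 for sham and -2.25 ± 0.10 for Acu/LFES (SD over 3 mice), a difference of -0.85, or a 1.80-fold lower ratio. The two-sided exact permutation test gave p = 0.1, the smallest that 3 mice against 3 allow, and 0.3 after Benjamini-Hochberg adjustment over the 6 pairs that the 4 members form. Leaving out any mouse kept the difference between -0.92 and -0.79. Pairs of miRNAs outside the members were not compared, so whether such a gap is unusual among ratios was not tested. Among single miRNAs tested, 8.11% were lower and 8.88% higher in each Acu/LFES mouse than in each sham mouse.

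The ratios of miR-126a-5p to miR-221-3p and to miR-222-3p were both added after the data were seen, and the planned ratios overlapped between groups. The ratio to miR-222-3p also separated the groups, but it shares its numerator with the other and is not independent of it. It was 3.99, 3.81 and 5.65 for sham mice 1 to 3, against 3.32, 1.43 and 2.00 for Acu/LFES mice 4 to 6, with every Acu/LFES mouse lower but a wide spread among them. The log2 difference was -1.06 (two-sided exact permutation test, p = 0.1, adjusted 0.3), and it was -0.77 without Acu/LFES mouse 5. With miR-126a-3p as numerator the groups overlapped. The log2 difference was then -0.58 against miR-221-3p and -0.79 against miR-222-3p (p = 0.3 in each exact permutation test, adjusted 0.45), and the latter went to -0.19 without Acu/LFES mouse 5, where miR-126a-3p was low and miR-222-3p high.

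Within the seed pair, miR-221-3p had 9.93, 11.1 and 14.5 times the count of miR-222-3p under sham, compared with 15.0, 6.62 and 10.3 times under Acu/LFES. The sham values lay inside the Acu/LFES range. The log2 ratio differed by -0.21 between groups (two-sided exact permutation test, p = 0.7, adjusted 0.7) and by 0.092 without Acu/LFES mouse 5, so no change in the proportion of these neighbouring genes was detectable with this number of mice.

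**Figure D3:**
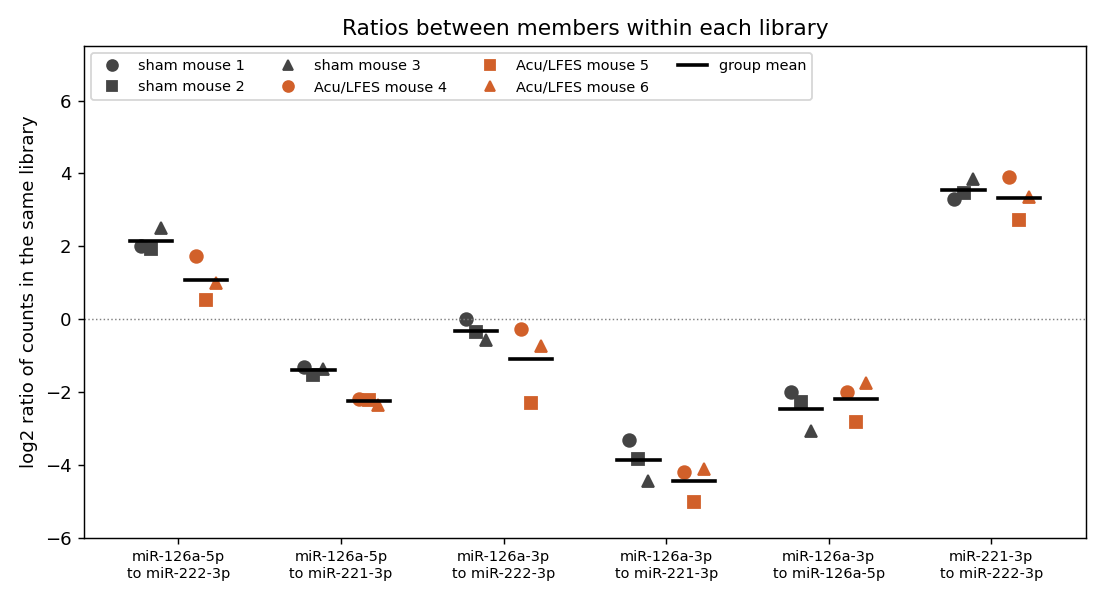
Log2 ratio of counts between members within the same library, for the 6 pairs that the 4 detected members form, with sham mice in grey, Acu/LFES mice in orange and a black bar at each group mean (n = 3). The ratios of miR-126a-5p to miR-221-3p and to miR-222-3p are lower in every Acu/LFES mouse than in every sham mouse, and the other 4 ratios overlap between groups.

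The arms of these hairpins were counted very unequally, and not in the same direction. In miR-126a the 5p arm prevailed in every library, with 80.0%, 83.0% and 89.4% of the hairpin's counts in sham mice 1, 2 and 3 and 80.0%, 87.6% and 76.9% in Acu/LFES mice 4, 5 and 6. Counting error does not cover the spread between mice. The exact 95% binomial interval of sham mouse 3, from 86.8% to 91.7%, did not reach that of sham mouse 2, from 80.6% to 85.1%. By log2 ratio of 3p to 5p the groups stood at -2.45 ± 0.56 and -2.19 ± 0.56 (SD over 3 mice), overlapping (two-sided exact permutation test, p = 0.6, adjusted 0.7), and the difference of 0.27 turned to -0.043 without sham mouse 3. The share was highest in sham mouse 3 and Acu/LFES mouse 5, which had the fewest counts of the 3p arm, 69 and 89.

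In miR-221 the imbalance was complete at this depth and ran to the 3p arm. Against 0 counts of miR-221-5p there were 31810 counts of miR-221-3p over all mice, and a count of 0 allows the 5p arm up to 0.00943% of the 3p count. In single libraries this limit went from 0.0228% in Acu/LFES mouse 4 to 0.201% in sham mouse 3, and it covers counting error only. The miR-221-3p count was therefore at least 496-fold higher than that of miR-221-5p in every library, taking 3 counts as the floor in each. RefSeq lists miR-221-5p at 26 bases, longer than the 3 other members with a RefSeq sequence, and which sequence the authors counted under this name is not given in the sources used here. miR-222-5p, the 5p arm of the neighbouring gene, was counted 8, 0 and 0 times under sham, against 5, 0 and 19 times under Acu/LFES, or 1.13% of the counts of its hairpin over all mice.

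Such imbalance was common in the table. Arms were paired where their names match, so hairpins whose arms are named differently are left out. Identical rows, such as those of miR-486, entered as separate pairs. Of the 69 arm pairs whose stronger arm had at least 1000 counts over the 6 mice, 8 had a weaker arm at 0 in every mouse, and the weaker arm took a median of 0.871% of the pair. Of the 12 pairs with as many counts as miR-221-3p or more, miR-221 included, 2 had no count of the weaker arm. miR-126a stood at the other end, since its weaker arm took 19.1% of the counts and only 5 of the 69 pairs, miR-126a among them, had more than 10% in the weaker arm.

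**Figure D4:**
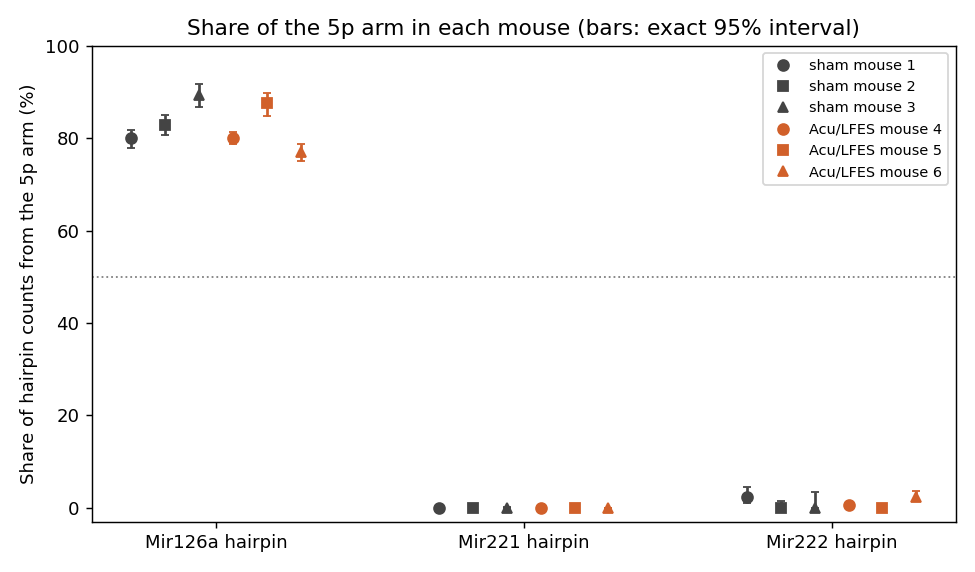
Share of each hairpin's counts that came from its 5p arm (percent) in each mouse, with exact 95% binomial intervals for counting error, sham in grey and Acu/LFES in orange. miR-126a lies between 76.9% and 89.4%, miR-221 at 0 and miR-222 between 0 and 2.33% in all 6 mice.

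The spread between mice of the same group also differed among members. On the log2 scale the pooled within-group SD was 0.16 for miR-126a-5p, 0.21 for miR-221-3p, 0.39 for miR-222-3p and 0.65 for miR-126a-3p, against a median of 0.70 over all miRNAs tested. miR-126a-5p was among the steadiest miRNAs measured, with 2.70% of those tested showing a smaller SD. Depth differs among them, so each was also set beside the 20 other miRNAs nearest to it in level, whose median SD was 0.37 for miR-126a-5p, 0.28 for miR-221-3p, 0.45 for miR-222-3p and 0.53 for miR-126a-3p. The arms of miR-126a thus sat on either side of their neighbours in level, the 5p arm below and the 3p arm above.

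Patterns over the 6 libraries were compared by the root-mean-square difference of centred log2 levels, where 0 means the same pattern. The arms of miR-126a differed by 0.47 and the pair miR-221-3p and miR-222-3p by 0.39. miR-221-3p lay nearest to miR-30a-5p, at 0.07, then miR-15a-5p, at 0.17, and miR-30e-5p, at 0.19, against a median of 0.71 over 255 miRNAs. For miR-126a-3p the nearest were miR-151-5p, at 0.33, the muscle miRNA miR-1a-3p, at 0.33, and miR-23a-3p, at 0.34, against a median of 0.87. The neighbours of miR-221-3p were picked as the nearest of 255 miRNAs, so their lying closer than its seed partner follows largely from that choice. At 0.39, miR-222-3p was closer to miR-221-3p than the median miRNA, at 0.71, but so were miR-126a-5p, at 0.43, and miR-126a-3p, at 0.52. The measure also grows with spread between mice, and the median within-group SD was 0.70 over all miRNAs tested against 0.39 for miR-222-3p. Distances to miRNAs of like level were not compared.

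In a list of 24 other miRNAs known from endothelium or vessel growth, all had counts and 22 were tested. In edgeR's quasi-likelihood test 0 passed an adjusted p under 0.05 in either direction, beside 0% of all miRNAs tested. By sign, 17 had a positive and 5 a negative log2 fold change, where all miRNAs tested split into 137 and 122, and the median was 0.37 against 0.05. Several rows of the list come from the miR-17-92 cluster, and others are closely related by name. Their signs are therefore not independent, and the split by sign was not tested. For 3 of the 22, miR-17-5p, miR-27b-3p and miR-181a-5p, each Acu/LFES mouse was higher than each sham mouse, beside 8.88% of all miRNAs tested; miR-17-5p was named after its values were seen. The most counted were miR-92a-3p of the miR-17-92 cluster, at 19209 ± 4552 CPM under sham and 25588 ± 13014 CPM under Acu/LFES, and miR-24-3p, at 4010 ± 662 and 5229 ± 2131 CPM (SD over 3 mice). At an unadjusted p under 0.05 there were 2, both higher, miR-181a-5p with a log2 fold change of 0.57 and miR-27b-3p with 0.63 (adjusted p = 0.518 for each), where 5.79% of all miRNAs tested were higher at that level. miR-126a-5p thus lay on the other side of 0 from most of this list. Its log2 fold changes went from -1.07 to 1.86, both ends being miRNAs with 0 counts in a sham mouse.

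Markers of other sources were read beside these values. For platelet and white-cell miRNAs, 7 of 8 were in the table and tested, 5 had a negative log2 fold change with a median of -0.35 over the list, and their summed level was 7903 to 8643 CPM in sham and 6084 to 7998 CPM in Acu/LFES mice, overlapping between groups. The most counted, miR-142a-5p of blood cells, had a log2 fold change of -0.33, followed by miR-223-3p of platelets and myeloid cells at 0.07, miR-191-5p at -0.35 and miR-150-5p of lymphocytes at -0.40. Of this list, 2 were positive, miR-223-3p among them. The arms of miR-126a were at -0.41 for 5p and -0.12 for 3p, and a source shared with this list was not tested. For miRNAs of smooth muscle, another cell type of the vessel wall, 2 of 4 were tested. The summed level of the list was 456 to 898 CPM in sham and 1043 to 1642 CPM in Acu/LFES mice, without overlap. Of all miRNAs tested, 8.88% were likewise higher in each Acu/LFES mouse than in each sham mouse. Almost all of the sum was miR-143-3p, whose log2 fold change was 1.03 (edgeR adjusted p = 0.269). miR-145a-5p, from the same cluster, was at -0.03, and miR-143-5p had 0 counts.
Red-cell miRNAs, with the identical miR-486 rows both counted, summed to between 564080 and 1146543 CPM in sham and between 147010 and 972321 CPM in Acu/LFES mice, with 5 of 6 tested. Those of striated muscle went from 10094 to 11262 CPM and from 7483 to 12453 CPM, with 3 of 6 tested, the most counted, miR-133a-3p, at a log2 fold change of -0.04, and miR-208b-3p at 0 counts, and those of liver from 10285 to 23630 CPM and from 4063 to 17954 CPM, with 3 of 4 tested and the most counted, miR-122-5p, at -0.67. The groups overlapped in all 3 lists, and 0 of the miRNAs tested in these 5 lists passed an adjusted p under 0.05. With both miR-486 rows left out of the table, the log2 fold changes were -0.43 for miR-126a-5p, -0.14 for miR-126a-3p, 0.41 for miR-221-3p and 0.61 for miR-222-3p. The part of platelet and smooth-muscle vesicles in the values of miR-126a, miR-221 and miR-222 was not tested.

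**Figure D5:**
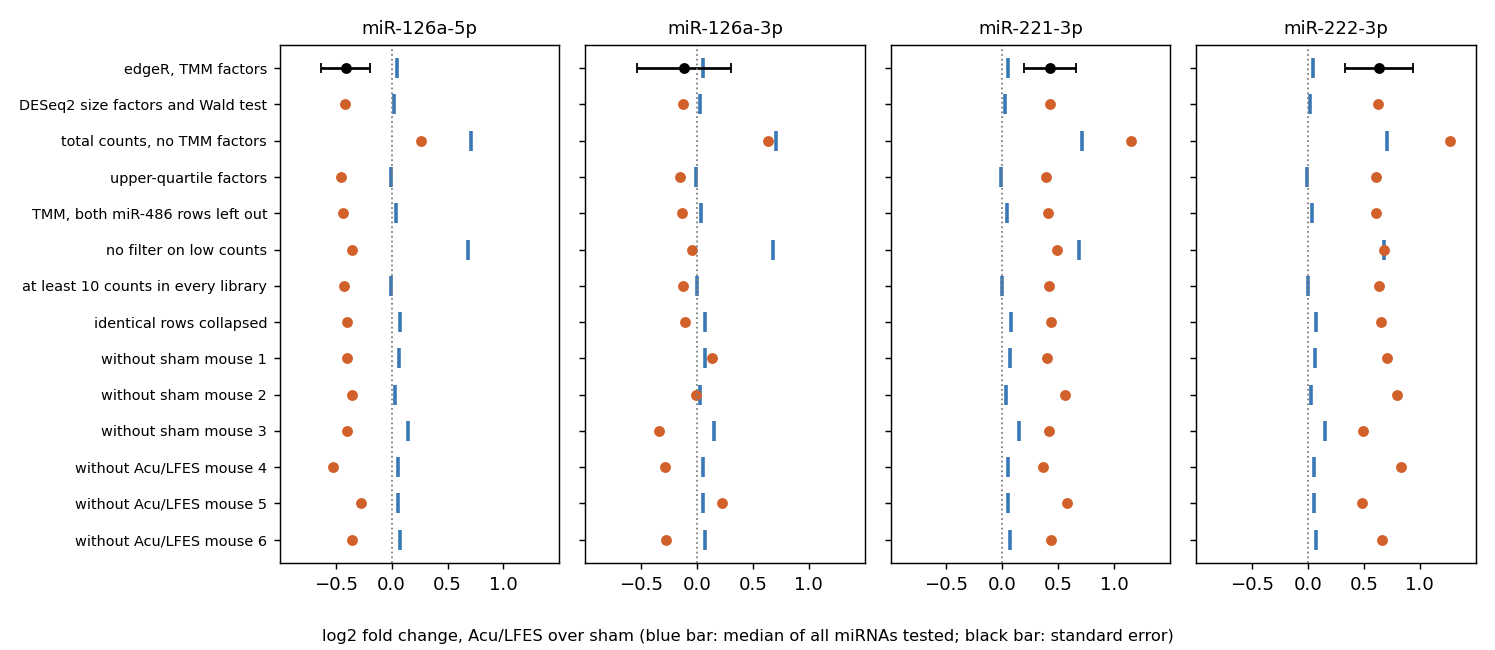
Log2 fold change of Acu/LFES over sham for each detected member with edgeR and TMM factors (black, with standard error) and under 13 alternatives (orange), beside the median of all miRNAs tested under the same setting (blue bar). miR-221-3p and miR-222-3p stay above 0 throughout, miR-126a-5p is above 0 with total counts only, at 0.26, where the median of all miRNAs is at 0.71, and miR-126a-3p changes side.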

How the data were processed

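Exosomes were pelleted from the serum of each mouse by serial centrifugation, and small RNA libraries, 1 per mouse, were sequenced in a single lane. Per mature miRNA, the authors deposited read counts as counted, without normalisation. The submitters' processing notes name bcl2fastq 1, cutadapt 1.6 and DESeq2 1.26.0; the aligner, the counter, the allowed mismatches, the miRNA annotation and the build are not given in the sources used here, and they decide which reads count for which arm. Groups and mouse numbers came from the sample titles.

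TMM factors and a quasi-likelihood test were obtained with edgeR 4.0.16 (R 4.3.3) over the 259 of 954 counted miRNAs that passed its default filter, with Benjamini-Hochberg adjustment over all of them and a threshold of 0.05. Standard errors came from the F statistic and 95% intervals from its degrees of freedom. All rows entered library totals, including 67 rows that do not name mouse miRNAs and hold 104 counts. Library totals were 391708 to 1504137 counts, and a floor of 3 counts stood at 1.80 to 9.91 CPM. The pattern and spread comparisons used log2 of CPM plus 0.5. For ratios, the exact permutation test was two-sided. Intervals cover counting error only. The steps were tested on simulated counts.

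The members, lists and tests were chosen with earlier results of these data known. Named miRNAs are the 5 members, up to 4 of the most counted in each list, those with an unadjusted p under 0.05, markers at 0 counts, and for miR-126a-3p and miR-221-3p the 3 nearest patterns. Alternatives were DESeq2 1.42.0, other factors and filters, collapsed rows and each mouse left out; 3 of the 6 ratios were added after seeing the data. Plots used matplotlib 3.10.9 under Python 3.11.15.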

Additional observations from a re-analysis of the deposited data

How the results depend on the processing

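Of the values that were recomputed, miR-221-3p, miR-222-3p and their sum stayed positive and above an adjusted p of 0.05 under all 13 alternatives, and miR-126a-5p stayed negative in 12 of them. With total counts in place of TMM factors, the log2 fold change was 0.26 for miR-126a-5p and 0.64 for miR-126a-3p. Leaving out each mouse in turn, edgeR's log2 fold change went from -0.53 to -0.28 for miR-126a-5p, from -0.34 to 0.23 for miR-126a-3p, from 0.36 to 0.58 for miR-221-3p and from 0.48 to 0.83 for miR-222-3p, and the log2 difference between groups from -0.043 to 0.58 for the ratio of miR-126a-3p to miR-126a-5p and from -0.50 to 0.092 for that of miR-221-3p to miR-222-3p. The number of all miRNAs called at an adjusted p under 0.05 was 9 with DESeq2 and 0 in edgeR's test, which had 23 at an unadjusted p under 0.05; the cause was not tested. With no filter on low counts, the median log2 fold change was 0.68, level with miR-222-3p at 0.68 and above miR-221-3p at 0.49 and their sum at 0.51 in the same fit. With at least 10 counts required in every library the median was -0.002, below miR-221-3p at 0.41 and miR-222-3p at 0.64. The number of miRNAs at an unadjusted p under 0.05 was 53 with no filter on low counts and 48 without sham mouse 1. The split of calls at that level was 15 higher and 8 lower with TMM factors and 23 higher and 0 lower with total counts. The ratio of miR-221-3p to miR-221-5p has no value because the 5p arm had 0 counts, and adding 0.5 was not run for it. No paired analysis was possible because mouse numbers 1 to 6 are not shared between groups.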
